A study of Mus musculus with 4 samples.

Results

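Imprinted genes were followed by locus in cultured progenitors of the embryonic mouse cortex, with and without hairpins against 3 regulators, of which Zfp57 is itself an imprint factor. The members were given as a list of 51 gene symbols at 22 imprinted loci, and each was looked up in the deposited table through its Ensembl identifier in GENCODE M21. Of the 51, 44 had a row among the 34866 identifiers of the table and 41 had enough counts to be tested. Each locus had at least 1 tested member. The 7 others, H19, Meg3, Rian, Mirg, Airn, Kcnq1ot1 and Peg13, are noncoding RNAs and were not analysed here. The table covered 21782 of 21951 protein-coding genes of M21 but only 19 of 5854 lincRNA genes.

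An imprinted gene is transcribed mainly from the copy inherited from the mother or mainly from that inherited from the father. The choice is carried by DNA methylation set in the egg or sperm at imprinting control regions, and ZFP57, a zinc-finger protein that recruits TRIM28 and histone methylation machinery, holds that methylation in the early embryo by binding the methylated hexamer TGCCGC. Imprinted genes lie in clusters in which neighbours are often expressed from opposite parental copies. Many of them act in growth, in placenta and in brain. The class of each gene used below, paternally or maternally expressed, is background knowledge of mouse tissues. Reads were not assigned to parental alleles, so a level is the sum over both copies.

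Neural stem and progenitor cells were taken from wild-type dorsal telencephalon at E11.5 and dissociated. They were transduced with lentivirus and grown in medium with basic fibroblast growth factor as floating neurospheres for 5 days. The 2 shControl libraries came from cells given a single control vector, CS-EG-shControl, at a multiplicity of infection of 30. The 2 triple knockdown libraries came from cells given 3 vectors together at 10 each: shZfp7 and shZfp57 in the backbone pLV-EG, and shPhf21b in pCS-EG. Number of vectors and, for the hairpins against Zfp7 and Zfp57, the vector backbone differed between groups, so their share in a difference cannot be told apart from that of the hairpins. All 4 libraries carry 1 batch label. The labels do not say whether replicates were separate cultures, so p-values measure the spread between these libraries, which may be technical.

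Library totals ran from 14694387 to 20779211 estimated counts. Mitochondrial genes took 30.3% and 33.9% of them in shControl and 26.6% and 28.5% in the knockdown, without overlap between groups. Levels are in CPM, the count relative to the TMM-scaled library total, as mean ± SD of 2 libraries, and fold changes are triple knockdown over shControl. Zfp57 was at 14.6 and 11.8 CPM in the shControl libraries and at 10.7 and 9.32 CPM in the knockdown libraries (log2 fold change -0.40, edgeR adjusted p = 0.341). Zfp7 was at 1.67 and 2.25 CPM in shControl and 1.97 and 0.98 CPM in the knockdown, with overlapping groups (-0.37, edgeR adjusted p = 0.80). Phf21b was at 7.25 and 7.36 CPM in shControl and 5.49 and 6.45 CPM in the knockdown (-0.29, edgeR adjusted p = 0.644). None of the 3 passed the threshold of 0.05. Over all 14050 tested genes, 76 rose and 116 fell, but without shControl replicate 2 the counts were 280 and 334, and without triple knockdown replicate 1 they were 27 and 17. Leaving out triple knockdown replicate 2 gave 36 and 27, and without shControl replicate 1 the count of genes that fell was 184. Progenitor markers such as Sox2 (62.1 to 66.9 CPM in the controls) and Pax6 were present in every library, and so were all 11 neuron markers.

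Among the imprinted genes, Peg3 fell to 61.4% of its control level and Mest rose to 141%, both paternally expressed, and the other 39 tested members did not pass the threshold. The background over all tested genes was 1.37% past the threshold, with 0.541% higher and 0.826% lower. At an unadjusted p under 0.05 there were 3 members above control (Mest, Peg12 and Ddc) and 5 below (Peg3, Igf2, Ndn, Nnat and Begain), where 12% of all genes met that mark. limma-voom called 1 higher and 1 lower as well, and DESeq2 called 1 higher and 0 lower. The median log2 fold change of the 41 members was 0.01, beside -0.01 over all tested genes, with a range from -1.05 to 0.66. In 36 of the 41, or 87.8%, the log2 fold change lay within 0.5 of zero, and 84.8% of all tested genes did. Both knockdown libraries were above both controls in 9 members and below both in 10, against 19.6% and 21.7% of all tested genes, and 22 members had overlapping groups. Over all tested genes, 41.3% had both knockdown libraries outside the range of the controls.

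**Figure D1:**
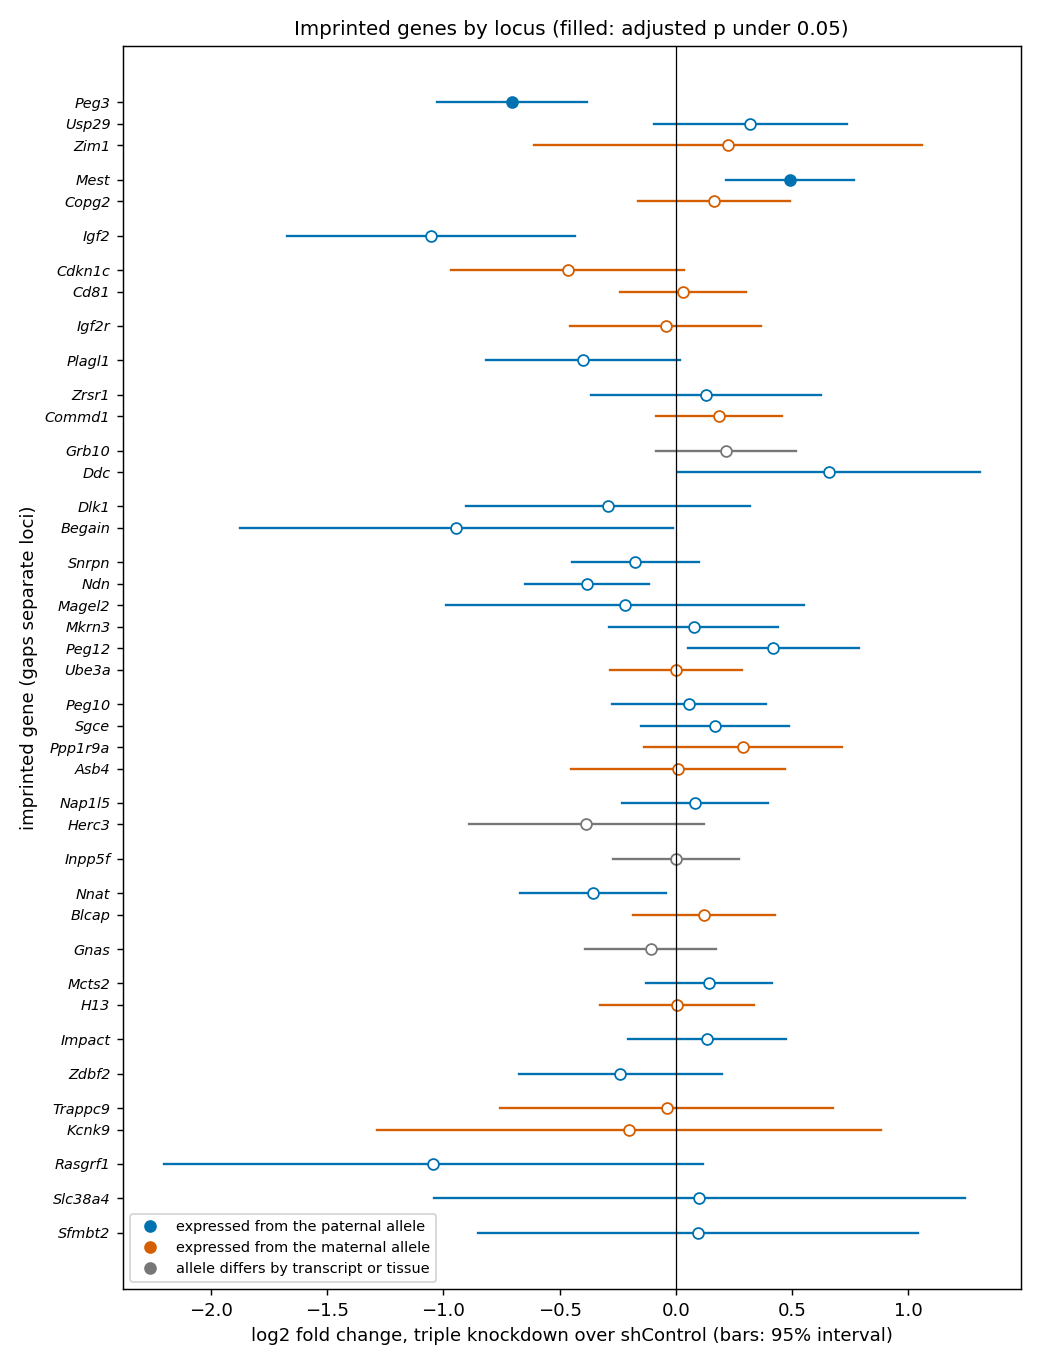
Log2 fold change (triple knockdown over shControl, horizontal axis) of the 41 tested imprinted genes, ordered by locus with gaps between loci; bars are 95% intervals from the edgeR standard error and colours give the parental copy known to be expressed. The filled points, with an adjusted p under 0.05, are Peg3 at -0.70 and Mest at 0.49, and 36 of the 41 points lie within 0.5 of zero.

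The 13 tested maternally expressed genes ranged from -0.46 to 0.29 and all stayed within 0.5 of zero. None of them passed the threshold in edgeR, limma-voom or DESeq2, and 0 had an unadjusted p under 0.05 in any of those tools. Their groups overlapped in 10 of 13 genes, and the median was 0.01. The 24 tested paternally expressed genes held both calls and all 8 of the members with an unadjusted p under 0.05, had a median of 0.07, and split into 13 positive and 11 negative values. Without 1 library at a time that median ran from -0.189 to 0.00701, so its sign does not hold. Their groups overlapped in 10 of 24. Beside these counts, 41.3% of all tested genes had both knockdown libraries outside the range of the controls. An unadjusted p under 0.05 in edgeR was met by 12% of all tested genes. A difference between the classes was not tested, and the classes were not checked in these cells. Some can depend on tissue, as for Sfmbt2, imprinted mainly in placenta, and Ube3a, maternal in neurons. The 4 genes classed apart because their expressed copy differs by transcript or tissue were Grb10, Gnas, Inpp5f and Herc3. They gave 0 calls in edgeR, limma-voom and DESeq2 and 0 at an unadjusted p under 0.05. Their log2 fold changes ran from -0.39 to 0.22.

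The Peg3 and Mest start regions are shown because these genes carry the calls and because their sequence content differed in the ZFP57 hexamer. Both sequences are from RefSeq on GRCm38.p6, read on the plus strand, 5′ to 3′, with the hexamer in capitals where it occurs. The first is the whole stretch of 163 bases between the RefSeq starts of Peg3 and Usp29, which are transcribed away from each other, and lies at chr7:6730420-6730582. GENCODE M21 places starts of both genes slightly inside it, so 17 of its bases are exonic there. The second is the 250 bases before a start of Mest, at chr6:30737803-30738052.
Peg3-Usp29: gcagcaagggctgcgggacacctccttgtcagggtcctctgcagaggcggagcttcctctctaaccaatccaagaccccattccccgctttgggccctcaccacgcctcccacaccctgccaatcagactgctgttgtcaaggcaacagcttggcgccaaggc
Mest: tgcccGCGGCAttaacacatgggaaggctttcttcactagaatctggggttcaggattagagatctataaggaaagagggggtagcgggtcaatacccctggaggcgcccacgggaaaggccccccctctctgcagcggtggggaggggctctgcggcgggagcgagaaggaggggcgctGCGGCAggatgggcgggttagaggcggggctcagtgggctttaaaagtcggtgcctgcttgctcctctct
The Mest stretch holds the hexamer 2 times, each on the other strand and so read here as GCGGCA, at 245 and 70 bases before the start. It has 14 CpG sites, and the Peg3-Usp29 stretch has 5 and no hexamer, although the GC content of both is 62%. No match says only that these letters are not in this stretch, and methylation was not measured.

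At the Peg3 locus on chromosome 7 the paternally expressed neighbours Peg3 and Usp29 stood on opposite sides of control. Peg3 (ENSMUSG00000002265.16, 6703892 to 6730431 in GRCm38), a zinc-finger protein, was at 24.4 and 30.1 CPM in the shControl libraries and at 14.9 and 18.5 CPM in the knockdown libraries. Both knockdown libraries were below both controls. Its level fell from 27.3 ± 4.03 to 16.7 ± 2.53 CPM (SD, n = 2), with log2 fold change -0.70 ± 0.163 (SE), an edgeR adjusted p of 0.00739 and a 95% interval of 49.1% to 76.8% of control. In these bulk cultures, fewer cells that express the gene and less RNA per cell cannot be told apart. Without triple knockdown replicate 1 the edgeR adjusted p was 0.635, with DESeq2 it was 0.184 and with scaling by library size alone 0.212. No exonic base of Peg3 overlapped another gene.

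Usp29, a ubiquitin-specific protease whose start is parted from that of Peg3 by the stretch shown, was at 6.83 and 6.16 CPM in shControl and 7.68 and 8.67 CPM in the knockdown. The knockdown libraries were both above the controls, but the log2 fold change of 0.32 ± 0.209 (SE) did not pass (edgeR adjusted p = 0.576). Zim1, a maternally expressed zinc-finger gene next to Peg3, was low, at 1.21 and 1.65 CPM in shControl and 1.6 and 1.69 CPM in the knockdown, with overlapping groups and an edgeR adjusted p of 0.893. The count ratio of Peg3 to Usp29, which does not depend on library scaling, was 3.58 and 4.89 in shControl and 1.94 and 2.13 in the knockdown. The ratio of Peg3 to Zim1 was 20.0 and 18.0 in shControl against 9.36 and 11.1 in the knockdown. Neither of these ratios overlapped between groups. That of Usp29 to Zim1 did, at 5.584 and 3.675 in shControl and 4.82 and 5.187 in the knockdown. With 2 libraries in each group the smallest exact permutation p is 0.33. The ratios here and below each hold a gene whose own groups did not overlap, so they are not separate support.

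Mest and Copg2 on chromosome 6 overlap tail to tail on opposite strands, and Mest alone passed the threshold. Mest (ENSMUSG00000051855.15, 30723547 to 30748465), which encodes a protein of the hydrolase fold, was at 183 and 155 CPM in shControl and at 237 and 239 CPM in the knockdown. Both knockdown libraries lay above both controls. Its level rose from 169 ± 19.9 to 238 ± 1.28 CPM (SD, n = 2), with log2 fold change 0.49 ± 0.138 (SE), an edgeR adjusted p of 0.0475 and a 95% interval of 116% to 170% of control. The call sits at the threshold: the edgeR adjusted p was 0.0679 without shControl replicate 2, 0.649 when triple knockdown replicate 1 was left out and 0.45 when replicate 2 of that group was. It was 0.069 with scaling by library size alone, 0.0588 with no filter on low counts and 0.0577 with a fit that is not robust.

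Copg2, a maternally expressed subunit of the coatomer that coats transport vesicles, was at 18.9 and 16.5 CPM in shControl and 18.9 and 20.9 CPM in the knockdown. Both knockdown libraries were above the controls by a small margin, and the difference did not pass (log2 fold change 0.16, edgeR adjusted p = 0.764). The count ratio of Mest to Copg2 was 9.72 and 9.45 in shControl and 12.5 and 11.4 in the knockdown. Exons of Copg2 cover 23.1% of the exonic bases of Mest, and the sources used here do not say whether the libraries kept strand, so reads of the shared part cannot be assigned with certainty.

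**Figure D2:**
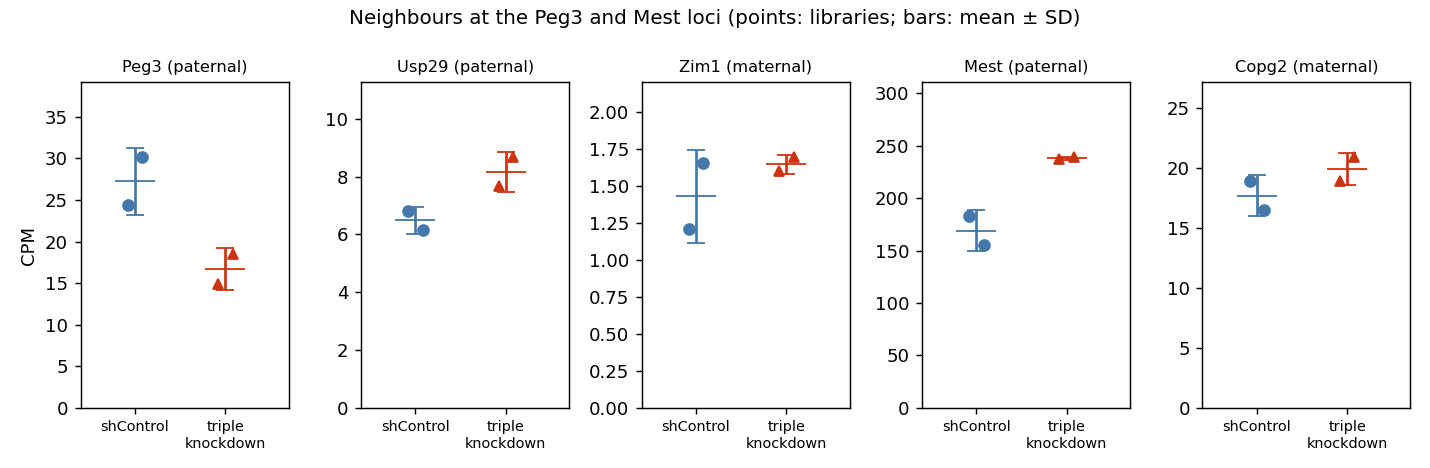
Levels in CPM (vertical axes, each from 0) of the members at the Peg3 and Mest loci in the 2 shControl libraries (blue circles) and the 2 triple knockdown libraries (red triangles); horizontal lines are means and bars are SD. Peg3 is lower in both knockdown libraries (14.9 and 18.5 CPM) and Mest higher (237 and 239 CPM), while the groups of Zim1 overlap.

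The growth control genes gave no call. Igf2, the paternally expressed insulin-like growth factor 2 (ENSMUSG00000048583.16, chromosome 7, 142650766 to 142666816), was at 3.81 and 4.13 CPM in shControl and at 1.97 and 1.82 CPM in the knockdown. Both knockdown libraries were below both controls, at 48.2% of control (95% interval 31.3% to 74.1%), and the edgeR adjusted p of 0.0672 missed the threshold. These levels rest on 82 and 55 counts in shControl and 37 and 28 in the knockdown. Other genes, mainly Gm49394, which was at 0 counts in all 4 libraries, overlap 64.5% of the exonic bases of Igf2, so its level is uncertain. Igf2r, the maternally expressed receptor that clears IGF2, was at 7.62 and 7.66 CPM in shControl and 7.52 and 7.30 CPM in the knockdown. These 4 values lay close together, with both knockdown libraries just below control (log2 fold change -0.04 ± 0.206, edgeR adjusted p = 0.966).

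Igf2 is also abundant in mesenchyme and vessels, whose markers are given for that reason. All 13 listed markers of mesenchyme and meningeal fibroblasts had counts, though Foxd1 only 0 and 1 in shControl and 3 and 6 in the knockdown. Their summed level was 69.6 and 67.5 CPM in shControl and 62.7 and 65.0 CPM in the knockdown. The 11 markers of endothelial cells and pericytes summed to 9.10 and 11.49 CPM in shControl and to 9.97 and 10.1 CPM in the knockdown. Pecam1 and Rgs5 were the highest of them. Several were near zero, such as Kcnj8 with 1 and 2 counts in shControl and 0 and 1 in the knockdown. Of the tested markers of these lists, 11 and 6, 0 passed in edgeR, limma-voom or DESeq2, and 2 and 0 had an unadjusted p under 0.05 in edgeR. Their part in the Igf2 values was not tested.

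In the domain of the noncoding RNA Kcnq1ot1, 2 of 4 measured members were high enough to test, and both had overlapping groups. Cdkn1c, the maternally expressed cyclin-dependent kinase inhibitor p57, was at 6.87 and 3.83 CPM in shControl and at 4.21 and 3.71 CPM in the knockdown. shControl replicate 1 was the highest and the other 3 lay between 3.71 and 4.21 CPM (log2 fold change -0.46 ± 0.252, edgeR adjusted p = 0.466). Without shControl replicate 2 the edgeR adjusted p was 0.0455 at a log2 fold change of -0.78, and without shControl replicate 1 the log2 fold change was 0.05. That control library, shControl replicate 1, also held the most Ttr, a choroid plexus marker. Ttr was at 1800 CPM in it, 786 CPM in shControl replicate 2, and 1131 and 1039 CPM in the knockdown. It made up nearly all of the sum of the 7 markers listed. That sum was 1845 CPM in shControl replicate 1 and 824 to 1178 CPM in the other 3 libraries. Folr1, Kcne2, Clic6 and Calml4 were also highest in shControl replicate 1, while Kl and Otx2 were lowest in it. The part of choroid plexus in the Cdkn1c values was not tested. Cd81, a tetraspanin of the cell surface, was at 85.7 and 65.4 CPM in shControl and 80.7 and 74.0 CPM in the knockdown, with overlapping groups and log2 fold change 0.03 ± 0.137 (edgeR adjusted p = 0.965). Phlda2, a regulator of placental growth, had 7, 0, 3 and 6 counts in the order shControl 1 and 2, knockdown 1 and 2. The transporter gene Slc22a18 had 0, 1, 0 and 2 counts in that order. A count of 0 allows up to 0.139 to 0.225 CPM, from 3 counts in each library, for counting error only.

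Genes on chromosomes 10 and 11 gave no call either. Plagl1, a paternally expressed zinc-finger gene that restrains proliferation, was at 7.43 and 9.69 CPM in shControl and 6.24 and 6.65 CPM in the knockdown, both below control (log2 fold change -0.40 ± 0.21, edgeR adjusted p = 0.448). Commd1, a maternally expressed gene of copper handling, was at 168 and 180 CPM in shControl and 197 and 199 CPM in the knockdown. Both were above control (log2 fold change 0.19 ± 0.136, edgeR adjusted p = 0.644). Zrsr1, a paternally expressed retrogene related to a splicing factor that lies within Commd1, had overlapping groups at 4.30 ± 0.0265 and 4.68 ± 0.913 CPM (SD, n = 2). Grb10, an adaptor of insulin receptor signalling that neurons transcribe from the paternal copy and most other tissues from the maternal one, was at 25.0 and 24.8 CPM in shControl and 28.6 and 29.2 CPM in the knockdown. Both knockdown libraries were above control (log2 fold change 0.22 ± 0.152, edgeR adjusted p = 0.619). Its neighbour Ddc, which encodes DOPA decarboxylase, was at 2.04 and 1.95 CPM in shControl and 3.15 and 3.19 CPM in the knockdown. Ddc had the most positive log2 fold change of the tested members, 0.66 ± 0.327, and an edgeR adjusted p of 0.406.

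At the Dlk1-Meg3 locus on chromosome 12, whose maternally expressed noncoding RNAs were not analysed here, the 2 tested paternally expressed genes were below control without passing. Dlk1, a Notch-related transmembrane ligand, was at 3.16 and 3.23 CPM in shControl and 2.67 and 2.54 CPM in the knockdown (log2 fold change -0.29 ± 0.307, edgeR adjusted p = 0.785). Begain, a protein of the synapse, was at 1.86 and 1.43 CPM in shControl and 0.64 and 1.11 CPM in the knockdown, from 40 and 19 against 12 and 17 counts. Its groups did not overlap and its log2 fold change was -0.95 ± 0.469, with an edgeR adjusted p of 0.406. Leaving out triple knockdown replicate 1 gave -0.58, and leaving out replicate 2 of that group gave -1.37. Rtl1, a retrotransposon-derived gene of placenta and brain, was below the filter on low counts with 3 to 9.11 counts in a library.

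The Snrpn-Ube3a region of chromosome 7, whose human counterpart underlies Prader-Willi and Angelman syndromes, was measured through 6 members. 0 of them passed in edgeR, limma-voom or DESeq2, and in edgeR 1 lay above and 1 below control at an unadjusted p under 0.05. The paternally expressed members went in both directions. Ndn (necdin, ENSMUSG00000033585.5, 62346569 to 62350262), abundant in postmitotic neurons, was at 116 and 106 CPM in shControl and 79.8 and 90.9 CPM in the knockdown. Both knockdown libraries were below control, at 76.7% of it (log2 fold change -0.38 ± 0.134, edgeR adjusted p = 0.154). Without shControl replicate 2, Ndn had an edgeR adjusted p of 0.0354 at a log2 fold change of -0.43. Peg12, a relative of the Frat proteins that bind the kinase GSK3, was at 11.7 and 8.34 CPM in shControl and 13.5 and 13.6 CPM in the knockdown. It lay above control (log2 fold change 0.42 ± 0.185, edgeR adjusted p = 0.314), without shControl replicate 1 by 0.70 (edgeR adjusted p = 0.0423) and without shControl replicate 2 by 0.23 (edgeR adjusted p = 0.607). The count ratio of Peg12 to Ndn was 0.101 and 0.0783 in shControl and 0.169 and 0.15 in the knockdown. The ratio of Ndn to Magel2 overlapped between groups, at 71.4 and 44.2 in shControl and 45.4 and 55.8 in the knockdown. Those of Ndn to Snrpn and of Ndn to Mkrn3 did not overlap.

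Snrpn, which encodes the spliceosome protein SmN, was at 150 and 119 CPM in shControl and 113 and 126 CPM in the knockdown, with overlapping groups (log2 fold change -0.17 ± 0.137, edgeR adjusted p = 0.672). Exons of Snurf and other genes cover 34.1% of its exonic bases, and transcripts of this region share reads, so the split between them is uncertain. Mkrn3, a makorin ubiquitin ligase that restrains puberty, overlapped between groups at 11.7 ± 0.981 and 12.4 ± 1.92 CPM, and so did Magel2, a MAGE family gene, at 2.02 ± 0.55 and 1.69 ± 0.0921 CPM (SD, n = 2). Ube3a, the ubiquitin ligase expressed from the maternal copy in neurons, was at 36.3 and 40.6 CPM in shControl and 38.5 and 38.3 CPM in the knockdown. Its log2 fold change was 0.00 ± 0.143, with a 95% interval from 82.3% to 122% of control (edgeR adjusted p = 0.998).

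On chromosome 2, Nnat (neuronatin, ENSMUSG00000067786.16, 157560078 to 157562522), a paternally expressed small membrane protein of neural cells, was by far the most abundant member. It was at 2020 and 1884 CPM in shControl and at 1519 and 1529 CPM in the knockdown, so both knockdown libraries were below control. The log2 fold change was -0.36 ± 0.158 with an edgeR adjusted p of 0.319, and without shControl replicate 2 it was -0.39 with an edgeR adjusted p of 0.0352. Blcap, the maternally expressed gene that contains Nnat in an intron, had overlapping groups at 25.9 ± 4.49 and 28.3 ± 0.771 CPM (SD, n = 2). The count ratio of Nnat to Blcap was 69.6 and 83.0 in shControl and 54.7 and 53.0 in the knockdown, without overlap.

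The neuron markers are given beside Ndn, Nnat and Begain, which neurons express and which did not pass the threshold. These were picked from the members below control at an unadjusted p under 0.05 in edgeR. Other members that this text ties to neurons or synapses went both ways. Log2 fold changes were 0.29 for Ppp1r9a, 0.22 for Grb10, 0.00 for Ube3a and -1.04 for Rasgrf1. The summed level of the markers was 947 and 852 CPM in shControl and 685 and 688 CPM in the knockdown. Of the 11 markers, all tested, 4 fell and 0 rose: Tubb3 (log2 fold change -0.72), Nsg2 (-0.56), Celf4 (-0.58) and Neurod6 (-1.13). These 4 were known to be lower in these libraries when the list was drawn up, so their calls were fixed beforehand. They are included in the summed level and in the median log2 fold change of the list, -0.37. The other 7 did not pass and ran from -0.61 (Elavl3) to 0.20 (Rbfox3), with only Rbfox3 above zero. The 10 progenitor markers had a median of -0.04 and 0 calls in edgeR, limma-voom or DESeq2, with 1 (Sox2) at an unadjusted p under 0.05 in edgeR. Of 6 tested red cell genes, 1 rose, the embryonic globin Hbb-y (log2 fold change 0.63), and 3 were above control at an unadjusted p under 0.05 in edgeR, while DESeq2 called 0. The red cell list summed to 27.3 and 29.5 CPM in shControl and 42.2 and 40.0 CPM in the knockdown. The myeloid list summed to 34.8 and 37.8 CPM in shControl and 38.7 and 32.2 CPM in the knockdown, and 0 of 8 tested myeloid genes passed in edgeR, limma-voom or DESeq2, with 1 above and 1 below control at an unadjusted p under 0.05 in edgeR. The part of neurons and blood cells in the values of the imprinted genes was not tested.

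**Figure D3:**
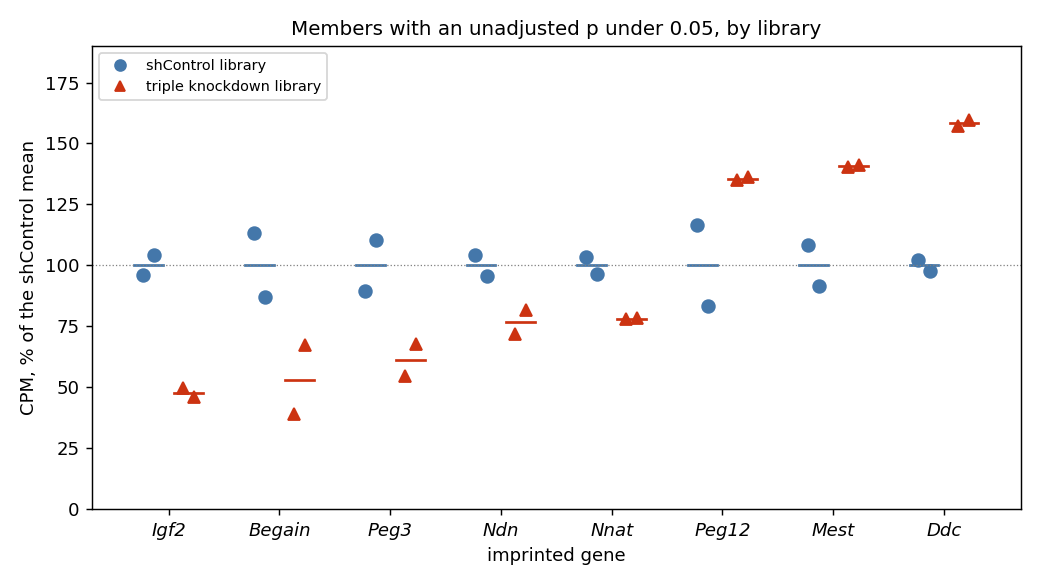
Level of the 8 members with an unadjusted p under 0.05 in each library, as a percentage of the shControl mean (vertical axis, from 0); circles are shControl libraries, triangles triple knockdown libraries and short lines group means. The groups do not overlap in any of the 8, which selection by that p favours. Among all 14050 tested genes, 41.3% had both knockdown libraries outside the range of the controls. Only Peg3 and Mest passed after adjustment over all tested genes.

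The other members of chromosome 2 were near control. Gnas, which encodes the stimulatory G protein alpha subunit and several transcripts of other parental origin, was at 273 and 215 CPM in shControl and 240 and 213 CPM in the knockdown, and fold change by transcript could not be read from a gene total (log2 fold change -0.11 ± 0.141, edgeR adjusted p = 0.836). Mcts2, a paternally expressed retrogene inside H13, was at 52.9 and 59.0 CPM in shControl and 63.3 and 60.1 CPM in the knockdown. Both knockdown values lay above control (log2 fold change 0.14 ± 0.136, edgeR adjusted p = 0.751). H13, the maternally expressed signal peptide peptidase, had a log2 fold change of 0.01 with overlapping groups. Sfmbt2, a Polycomb-related gene imprinted mainly in placenta, was low at 0.84 and 1.58 CPM in shControl and 1.01 and 1.5 CPM in the knockdown (log2 fold change 0.10 ± 0.477, edgeR adjusted p = 0.968).

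The Peg10-Sgce and Nap1l5-Herc3 loci of chromosome 6 gave 6 tested members and no call. Sgce, the paternally expressed epsilon-sarcoglycan, was at 19.5 and 19.2 CPM in shControl and 20.9 and 22.6 CPM in the knockdown, above control (log2 fold change 0.17 ± 0.16, edgeR adjusted p = 0.753). Peg10, a retrotransposon-derived gene that the placenta needs, overlapped between groups at 18.4 ± 2.53 and 19.1 ± 3.4 CPM (SD, n = 2). The maternally expressed genes Ppp1r9a, an actin-binding protein of synapses, and Asb4, an ankyrin-repeat protein, had log2 fold changes of 0.29 and 0.01 with overlapping groups. Nap1l5, a paternally expressed retrogene of the nucleosome assembly family inside Herc3, was at 24.5 and 21.4 CPM in shControl and 21.6 and 27.3 CPM in the knockdown, with overlapping groups (log2 fold change 0.08 ± 0.158, edgeR adjusted p = 0.899). Its host Herc3 lay below control at a log2 fold change of -0.39, with an edgeR adjusted p of 0.582.

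Members at 4 further loci had overlapping groups. Inpp5f, a phosphoinositide phosphatase gene with a paternally expressed variant, was at 55.1 and 55.7 CPM in shControl and 53.6 and 57.3 CPM in the knockdown (log2 fold change 0.00 ± 0.136, edgeR adjusted p = 0.998). Impact, a paternally expressed regulator of translation, was at 13.3 and 15.8 CPM in shControl and 15.5 and 16.3 CPM in the knockdown (log2 fold change 0.13 ± 0.171, edgeR adjusted p = 0.832). Zdbf2, a paternally expressed gene of chromosome 1, was at 6.04 and 8.26 CPM in shControl and 5.92 and 6.06 CPM in the knockdown (log2 fold change -0.24 ± 0.22, edgeR adjusted p = 0.739). That value rests on the controls: without shControl replicate 2 it was -0.00058 and without shControl replicate 1 it was -0.47. Trappc9, a maternally biased gene of vesicle trafficking that hosts Peg13, was at 2.51 and 1.73 CPM in shControl and 1.76 and 2.48 CPM in the knockdown (log2 fold change -0.04 ± 0.36, edgeR adjusted p = 0.981). Its neighbour Kcnk9, a maternally expressed potassium channel gene, was below 1 CPM in every library.

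Rasgrf1 and Slc38a4 were near the lower limit of what could be tested. Rasgrf1, a paternally expressed activator of Ras in neurons, was at 0.70 and 1.58 CPM in shControl and 0.59 and 0.46 CPM in the knockdown. Its log2 fold change of -1.04 ± 0.583 had a 95% interval from 21.7% to 109% of control (edgeR adjusted p = 0.486). Leaving out shControl replicate 2 gave -0.39, and leaving out shControl replicate 1 gave -1.57. Slc38a4, a paternally expressed amino acid transporter, was at 0.98 and 0.45 CPM in shControl and 0.59 and 1.04 CPM in the knockdown, with overlapping groups (log2 fold change 0.10 ± 0.574, edgeR adjusted p = 0.97).

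Dividing by the length of merged exons allows only a rough comparison between genes, as it spans all annotated transcripts and not only those expressed. Per kilobase of merged exons, Nnat stood far above the rest at 1067 ± 52.6 CPM per kb in shControl (SD, n = 2). Snrpn (62.3 ± 10.1) and Mcts2 (61.3 ± 4.71 CPM per kb) came next and did not differ beyond their spread. Mest followed at 42.9 ± 5.04 CPM per kb. Ndn (30.1 ± 1.86), Commd1 (29.4 ± 1.42), Cd81 (26.2 ± 5) and Gnas (21.8 ± 3.65 CPM per kb) formed a run in which each gene overlapped the next within its SD. In the knockdown Mest was at 60.3 ± 0.324 CPM per kb, between Mcts2 (67.6 ± 2.48) and Snrpn (55.3 ± 4.04 CPM per kb). Peg3 was at 2.05 ± 0.302 CPM per kb in shControl and 1.25 ± 0.19 in the knockdown, and Usp29 at 0.359 ± 0.0261 and 0.452 ± 0.0387. The imprinted genes together took 0.355% and 0.287% of all counts in shControl and 0.304% and 0.296% in the knockdown. Without Nnat the shares were 0.146% and 0.116% against 0.145% and 0.142%.

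**Figure D4:**
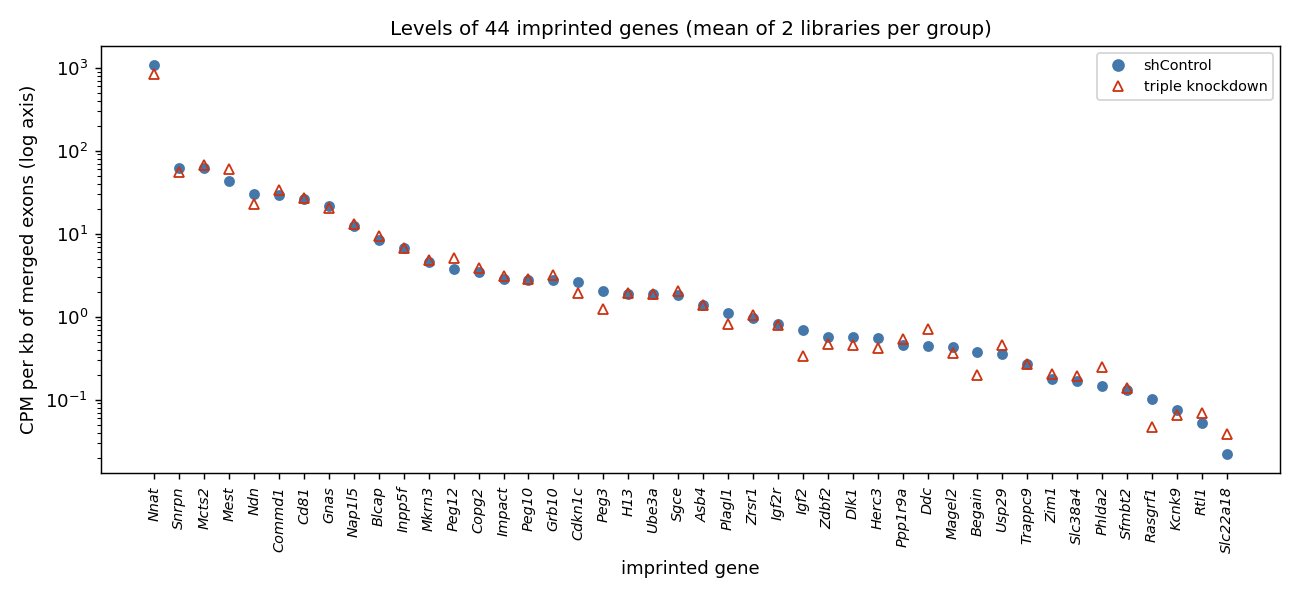
Mean level of the 44 measured imprinted genes in CPM per kilobase of merged exons (vertical log axis), ordered by their shControl mean; filled circles are shControl and open triangles triple knockdown, each the mean of 2 libraries. Nnat is highest at 1067 CPM per kb in shControl and Slc22a18 lowest at 0.0221.

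The hexamer of ZFP57 was searched on both strands as TGCCGC and its reverse complement GCGGCA in RefSeq windows of 300 bases, 250 before and 50 after each annotated start. Of 32851 windows of that length, 11.6% held it and 1.53% held at least 2, and the median window had 7 CpG sites. A window was found for 42 members, 35 of them tested. Over all 27025 genes with a window, 13.1% held the hexamer in at least 1. That set includes genes not tested here, and windows per gene and CpG content were not matched. The hexamer itself holds a CpG, so the sets are unlike and the shares were not compared by a test. At least 1 window held the hexamer in 12 of the 35 tested members. These were Commd1, Copg2, Grb10, Igf2, Mcts2, Mest, Nap1l5, Nnat, Plagl1, Snrpn, Zdbf2 and Zim1. They included 8 of 21 paternally expressed and 3 of 10 maternally expressed genes with a window. Their log2 fold changes ran from -1.05 to 0.49, with 7 positive and 5 negative. Members with the letters therefore lay on both sides of control. Of the called genes, Mest had them in these windows and Peg3 did not. Imprinting control regions away from the windows were not searched, so a window without the letters does not show a locus without them. Whether fold changes differed with the hexamer was not tested.

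Genes of the imprinting machinery and a list of other genes, imprinted elsewhere or next to imprinted clusters, gave no call. Of 23 listed factors that set, read or keep imprints, 20 were tested. 0 passed in edgeR, limma-voom or DESeq2, with 2 (Zfp57 and Atrx, a chromatin remodeller) below control at an unadjusted p under 0.05 in edgeR. Their median log2 fold change was 0.02, and the most abundant were the heterochromatin proteins Cbx3 (log2 fold change -0.06), Cbx5 (0.06) and Cbx1 (0.16). Trim28, the partner of ZFP57, was at 43.4 and 41.2 CPM in shControl and 46.3 and 46.1 CPM in the knockdown, with an edgeR adjusted p of 0.803. Zfp445, the other zinc-finger protein known to keep imprints, stood at -0.19 on the log2 scale (edgeR adjusted p = 0.72). Of 46 other imprinted or cluster genes, 30 were tested and 0 passed in edgeR, limma-voom or DESeq2. In edgeR 2 lay above (Casd1 and Pon2) and 2 below (Ntm and Cd44) at an unadjusted p under 0.05, and the median was 0.01. The most abundant of them, Chrac1, Nap1l4 and Pon2, had log2 fold changes of 0.16, -0.17 and 0.34.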

How the data were processed

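RNA was sequenced from 4 libraries, 2 per group. The authors deposited raw estimated counts for each gene in 1 table, made with Salmon on the builds GRCm38 and mm10, per the submitters' processing notes. The version of Salmon and the annotation are not given in these sources. Counts were rounded before testing (23.1% to 25.1% of values in a library were not whole). Identifiers were matched without version to GENCODE M21, which named 34582 of 34866. Genes with a minimum count of 10 by filterByExpr were fitted with edgeR 4.0.16 in R 4.3.3 (TMM, robust quasi-likelihood F test, two-sided, Benjamini-Hochberg over all 14050 tested genes, threshold 0.05), and the script was tested on simulated data. TMM factors ranged from 0.907 to 1.05. SE is the log2 fold change divided by the square root of F. With 2 libraries per group precision is limited. DESeq2 1.42.0, limma 3.58.1 (voom), other scalings, filters and left-out libraries were tried.

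The members, lists and tests were chosen with earlier results of these data known. Parental classes came from general knowledge. All members were accounted for; full values were given for those with an unadjusted p under 0.05 and for the most abundant tested member of each locus. In the lists of imprinting machinery and other imprinted genes, where none passed, the 3 most abundant were named. Marker lists were summarised, with the members past the threshold named. Trim28, Zfp445 and other list genes named were added after their values were seen. Replicate pairs differed by more than sampling noise (chi-square per degree of freedom 17.1 in shControl and 6.92 in the knockdown). No set test was used.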

Additional observations from a re-analysis of the deposited data

How the results depend on the processing

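Among the refits of single members, 442 kept direction and side of the threshold, 10 lost the threshold, 4 gained it and 34 changed sign; the cause was not tested. Higher and lower counts over all genes were 23 and 32 with DESeq2, lower was 28 under library size scaling, and without 1 library at a time they ranged from 27 to 280 and from 17 to 334. The imprinted genes had 0 higher with scaling by library size alone, with no filter, with the replicate block and with a fit that is not robust (0 to 2 without 1 library at a time), and 0 lower with library size alone and with DESeq2 (0 to 4). Library size alone took the median of all tested genes from -0.01 to 0.07 and gave a median of 0.0899 for all imprinted and for maternally expressed genes. Without 1 library at a time the median was -0.0549 to 0.0501 for all members and -0.189 to 0.00701 for paternally expressed ones. Without members sharing over 50% with another gene it was 0.02.

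Uncalled genes that changed sign were Asb4 (no filter -0.00057, limma-voom -0.0033), H13 (no filter -0.0019), Inpp5f (no filter -0.0061), Ube3a (no filter -0.0061), Igf2r (library size 0.0379) and Trappc9 (library size 0.029). Without 1 library at a time the log2 fold changes ran from -0.10 to 0.16 for Asb4, -0.0242 to 0.317 for Blcap, -0.14 to 0.24 for Cd81, -0.777 to 0.0501 for Cdkn1c, -0.256 to 0.0721 for Gnas, -0.0425 to 0.0767 for H13, -0.0461 to 0.05002 for Inpp5f, -0.503 to 0.074 for Magel2, -0.0835 to 0.232 for Mkrn3, -0.0923 to 0.245 for Nap1l5, -0.14 to 0.23 for Peg10, -0.34 to 0.58 for Sfmbt2, -0.33 to 0.82 for Slc38a4, -0.316 to 0.000805 for Snrpn, -0.29 to 0.28 for Trappc9, -0.0805 to 0.0935 for Ube3a, -0.00974 to 0.455 for Zim1 and -0.0911 to 0.309 for Zrsr1.

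With the replicate block 75 genes were higher and 97 lower; Peg3 kept its call (edgeR adjusted p = 0.00678) and Mest did not (0.106 at 0.50). Same-numbered replicates correlated at -0.03, which shows no strong shared shift but cannot tell whether they were paired. The labels do not say. A lone library in a left-out fit is assumed to vary like the other group. Depth limits the low genes: 1 read was worth 0.0464 to 0.0751 CPM.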
